A study of Mus musculus with 2 samples.

Results

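The genes described here encode the enzymes, transporters and regulators that carry glucose through glycolysis, gluconeogenesis and glycogen in the liver. The set was defined by gene symbol and branch of the pathway, with no threshold on a measured value, and all 41 of its members were found among the 24054 genes measured. Liver RNA was sequenced from male C57BL/6 mice aged 8 to 12 weeks that were either Pgrmc1 KO (Pgrmc1 -/Y) or WT. The KO lacks Pgrmc1, a heme-binding membrane protein, in the whole body, because floxed Pgrmc1 was deleted by Cre under the Sox2 promoter, so a difference in the liver need not arise in liver cells. C57BL/6 is the strain as labelled, and the KO line came from a cross of floxed C57BL/6N mice with the Cre line B6.Cg-Tg(Sox2-cre)1Amc/J. RNA from 5 mice of each genotype was pooled into 1 library, and a change in 1 mouse of a pool and a change in all 5 cannot be told apart. The feeding state and the time of harvest of the sequenced livers are not given in the sources used here.

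The liver takes up glucose after a meal, phosphorylates it, stores part of it as glycogen and breaks part of it down by glycolysis. Between meals it releases glucose from glycogen and makes it anew from lactate, glycerol and amino acids by gluconeogenesis. Most steps of glycolysis run in both directions with the same enzyme, while the irreversible steps have separate enzymes for each direction. These opposing enzymes are where insulin and glucagon act, in part through transcription.

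Levels are in TPM, a gene's share of the transcript pool corrected for its length, so they can be compared between genes. Differences are given on the log2 scale after 1 TPM was added to each level, which makes those of low genes look smaller than they are. Beside them stands a 95% interval by the Clopper-Pearson method for the log2 ratio of the authors' library means, which takes in the error of counting reads and no difference between mice. With 1 library per genotype there was no replicate and no test, and "higher" and "lower" below describe these libraries. The libraries held an estimated 22086688 reads in KO and 29710410 in WT, and the members rested on 24 to 76005 reads in KO and on 27 to 117717 in WT. Pgrmc1 was at 0.68 TPM in the KO pool and 949.49 TPM in the WT pool, a log2 difference of -9.14. The hepatocyte markers were abundant in both pools, with a summed level of 74013 TPM in KO against 77398 in WT, and 6 of 6 were lower in KO with a median log2 difference of -0.08. Of these, Apoa1 was nearly equal, at 12055 TPM in KO against 12085 in WT, and its interval lay above 0 (0.01 to 0.03). In bulk liver RNA, fewer cells of a type and less RNA per cell cannot be told apart.

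G6pc was the member with the largest difference between the pools, and Pck1, which encodes the enzyme of the first committed step of gluconeogenesis, was the most abundant member. The 250 bases upstream of each start site are shown because both promoters are textbook targets of glucagon and insulin and their transcripts differed in opposite directions. The sequences are from RefSeq on GRCm38, both on the plus strand, at chr11:101367466-101367715 for G6pc and at chr2:173152823-173153072 for Pck1. Capitals mark matches, on either strand, to the motifs searched, which were the cAMP response element core TGACGT, the E-box CACGTG, the forkhead motif TGTTTAC, the CCAAT box CCAAT and the GC box GGGCGG.
G6pc: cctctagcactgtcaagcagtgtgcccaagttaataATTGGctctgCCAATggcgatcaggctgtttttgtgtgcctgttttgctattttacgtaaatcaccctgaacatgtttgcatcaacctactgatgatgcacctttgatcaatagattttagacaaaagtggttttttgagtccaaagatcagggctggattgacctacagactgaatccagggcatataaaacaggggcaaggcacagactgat
Pck1: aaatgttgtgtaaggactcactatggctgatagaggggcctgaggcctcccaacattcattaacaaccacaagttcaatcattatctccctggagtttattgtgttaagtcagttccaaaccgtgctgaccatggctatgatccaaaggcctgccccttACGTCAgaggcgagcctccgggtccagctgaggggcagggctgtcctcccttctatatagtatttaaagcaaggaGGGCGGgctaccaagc
The G6pc window held a CCAAT box on each strand, at 214 to 210 bases before the start on the minus strand and at 204 to 200 on the plus strand, and no match to the other motifs. The Pck1 window held a cAMP response element core on the minus strand, 91 to 86 bases before the start, and a GC box 16 to 11 bases before it. Of all 32851 RefSeq windows of the same length, 33.8% held a CCAAT box, 32.7% a GC box, 6.47% the cAMP response element core, 6.02% the E-box and 3.17% the forkhead motif. Of the 40 members with a window, 19 held a CCAAT box, 26 a GC box, 6 the cAMP response element core, 8 the E-box and 1, Aldoc, the forkhead motif. A member was counted if any of its windows held the motif, while the shares above are of single windows. The counts and shares are therefore not on the same basis. A window for Gys2 was not analysed here. Only exact matches were counted, so variants of a motif are not marked. A match describes letters in this window only and says nothing of binding.

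Together the members made up 0.824% of the TPM in KO and 0.875% in WT. Levels spanned more than 3 orders of magnitude on the log axis of the plot of levels. Pck1 led in both pools, followed by Gapdh, Fbp1 and Ldha. Hk2 and Pfkfb4 averaged under 1 TPM over the pools, with 0.91 TPM in both pools for Hk2 and with 0.55 TPM in KO against 0.47 in WT for Pfkfb4, and they were left out of the counts below. G6pc lay between Ugp2 and Slc2a2 in WT and above Pygl in KO.

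**Figure D1:**
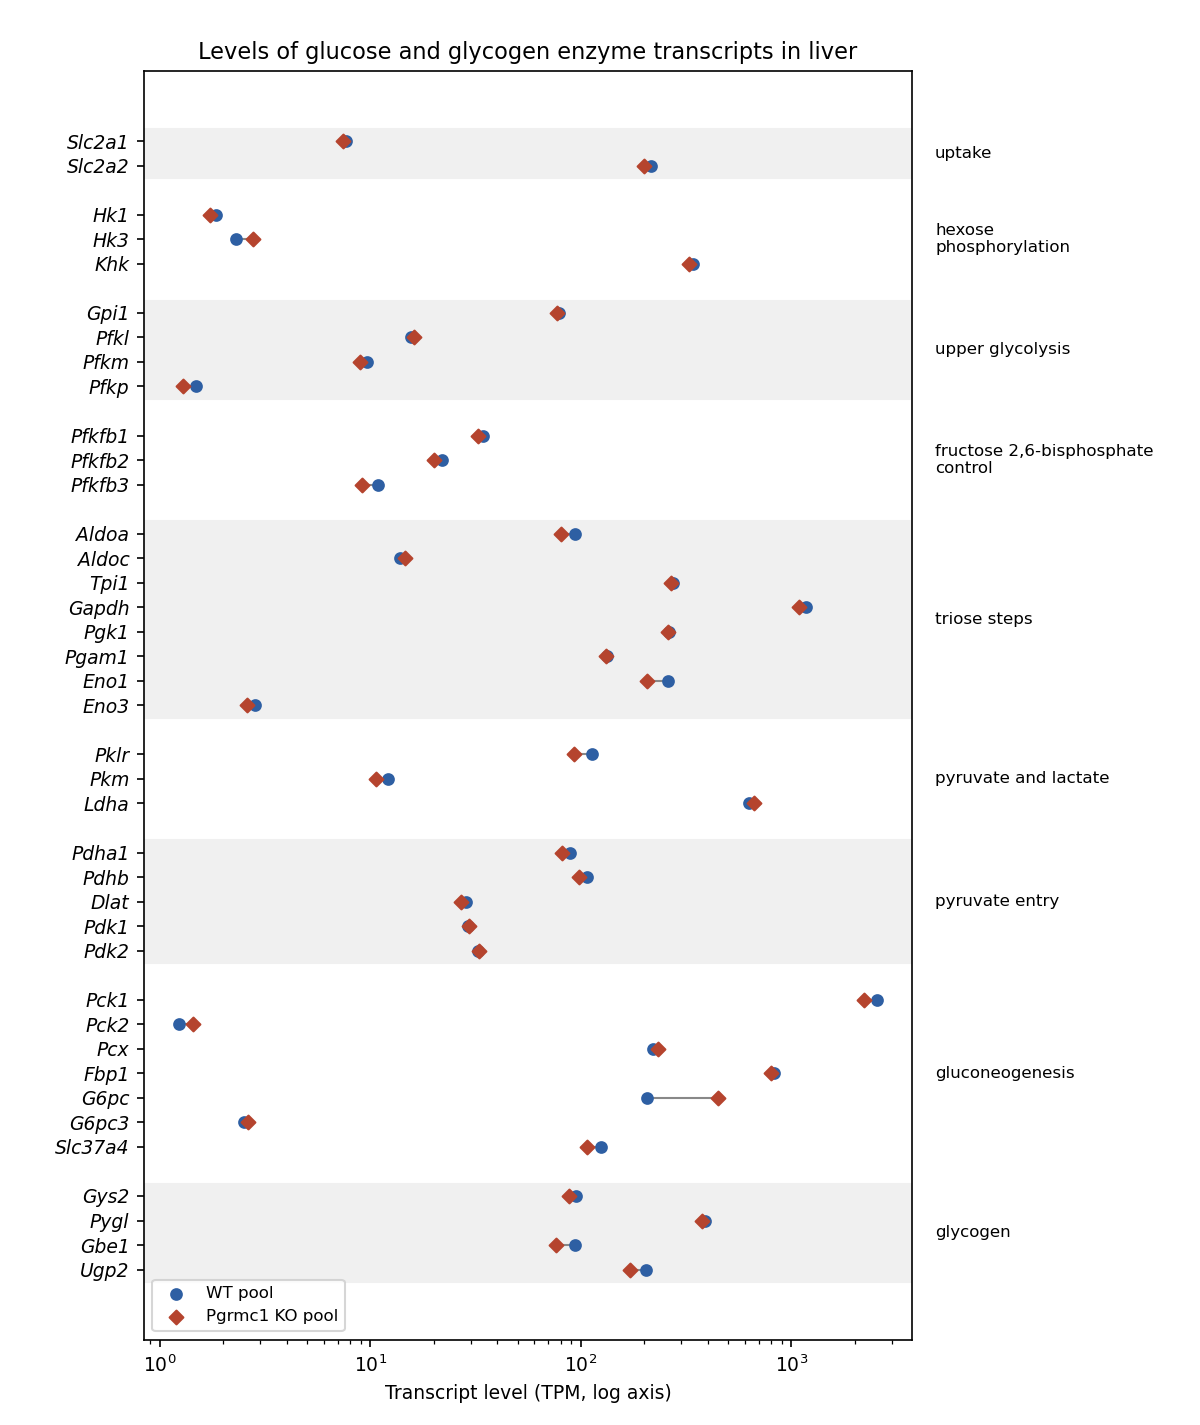
Level of the 39 genes averaging at least 1 TPM in the KO and WT pools, in TPM on a log axis, grouped by branch of the pathway. Each point is 1 pooled library and there are no error bars. The points of a gene lie close together except for G6pc, at 445.52 TPM in KO against 204.76 in WT.

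Of the 39 members that averaged at least 1 TPM, 1 was higher in KO by at least 1.4-fold, a rule that 1.09% of the 11623 genes at that level passed. None was at or below 0.6 of the WT level, where 0.301% of genes were, and none passed the mirror of 1.4-fold downward, which 1.02% of genes passed. At 1.2-fold, 1 member was higher and 3 were lower (Eno1, Pklr and Gbe1), beside 5.27% and 5.51% of all genes. The median member was at -0.07, against -0.01 for all genes, and 29 of 39 members (74.4%) were below 0, against 53.8% of genes. The 5th and 95th percentiles of all genes were -0.27 and 0.27, so most members lay within the range of the bulk of genes. Over all 41 members the counting interval lay above 0 for 3 (G6pc, Pcx and Ldha), below 0 for 16, and held 0 for 22.

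**Figure D2:**
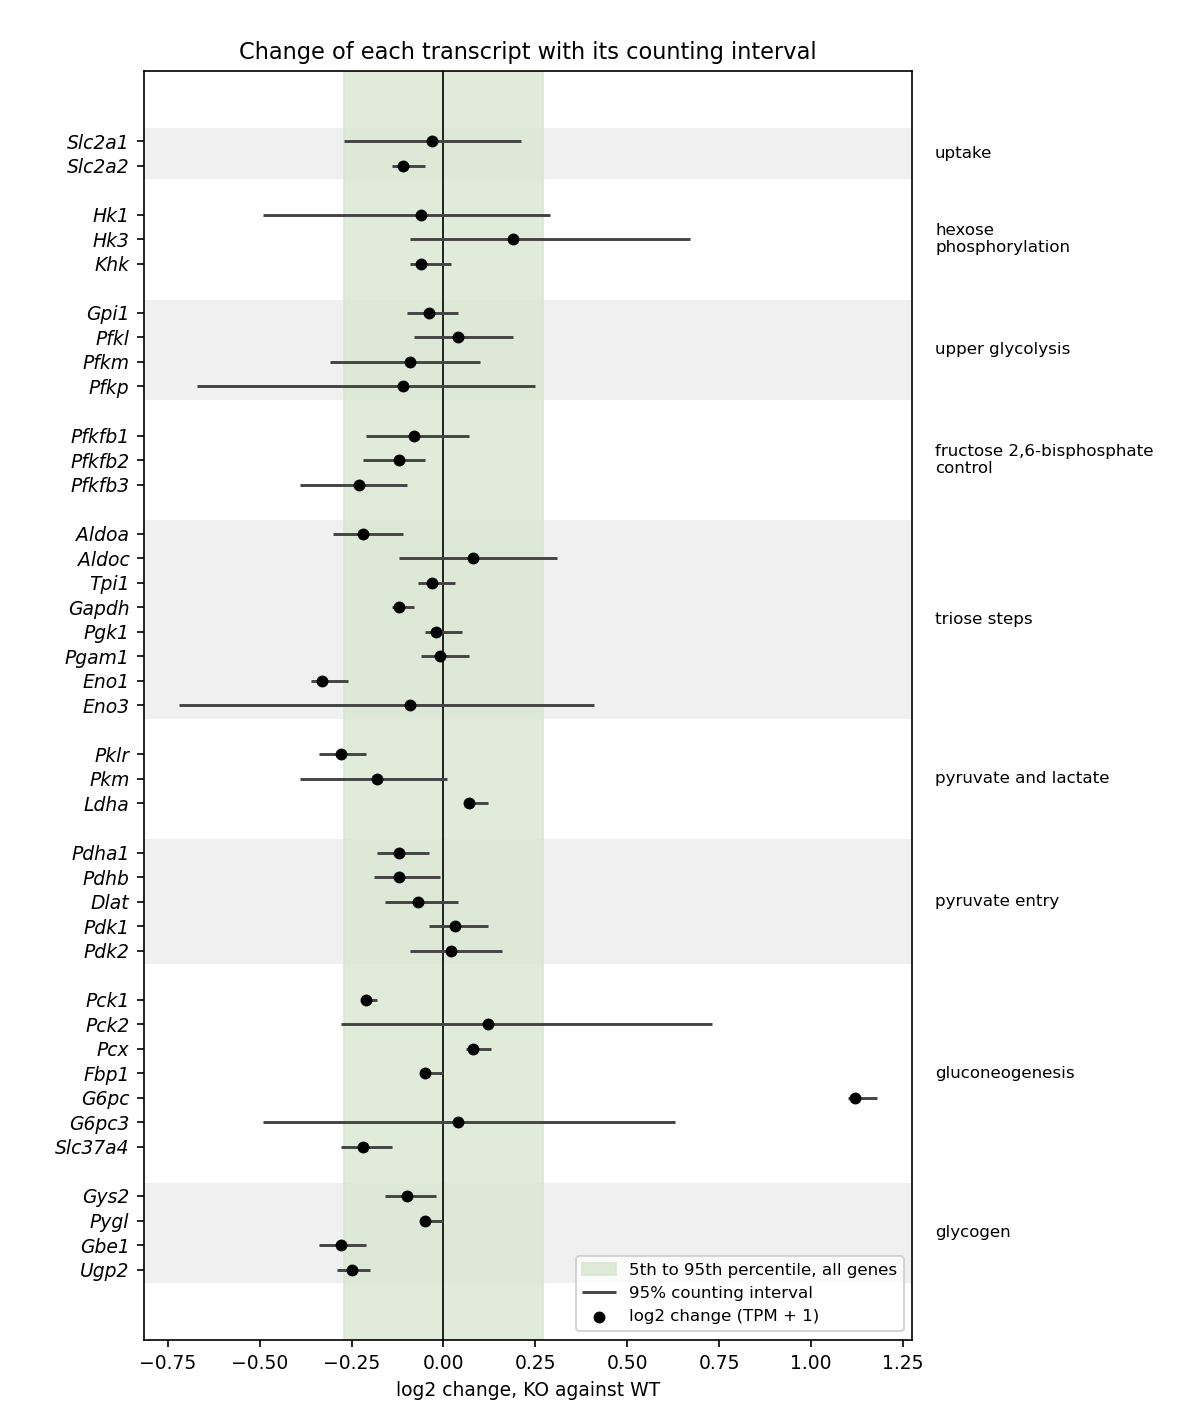
Difference between the pools for the 39 genes averaging at least 1 TPM, as log2((KO TPM + 1)/(WT TPM + 1)), by branch. Lines are the 95% counting interval of the ratio of the authors' means, so they need not be centred on the point, and the green band spans the 5th to 95th percentile of all genes. G6pc stands at 1.12, and the others lie between -0.33 (Eno1) and 0.19 (Hk3).

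Gluconeogenesis held the single large difference. G6pc encodes the catalytic subunit of glucose-6-phosphatase, which releases free glucose as the last step of both gluconeogenesis and glycogen breakdown (Entrez gene 14377; chromosome 11, 101367716 to 101377903 of GRCm38). Its level was 445.52 TPM in KO against 204.76 in WT, a log2 difference of 1.12 (interval 1.10 to 1.18, on 13032 and 8011 reads), or 118% higher. Among all 11623 genes, 35 had a larger log2 difference, and among the 1013 genes averaging at least 100 TPM, 8 did. Across the pseudocounts, input tables and scalings tried, the difference stayed between 1.12 and 1.14. None of the 100-base windows of its transcripts occurred in another gene.

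**Figure D3:**
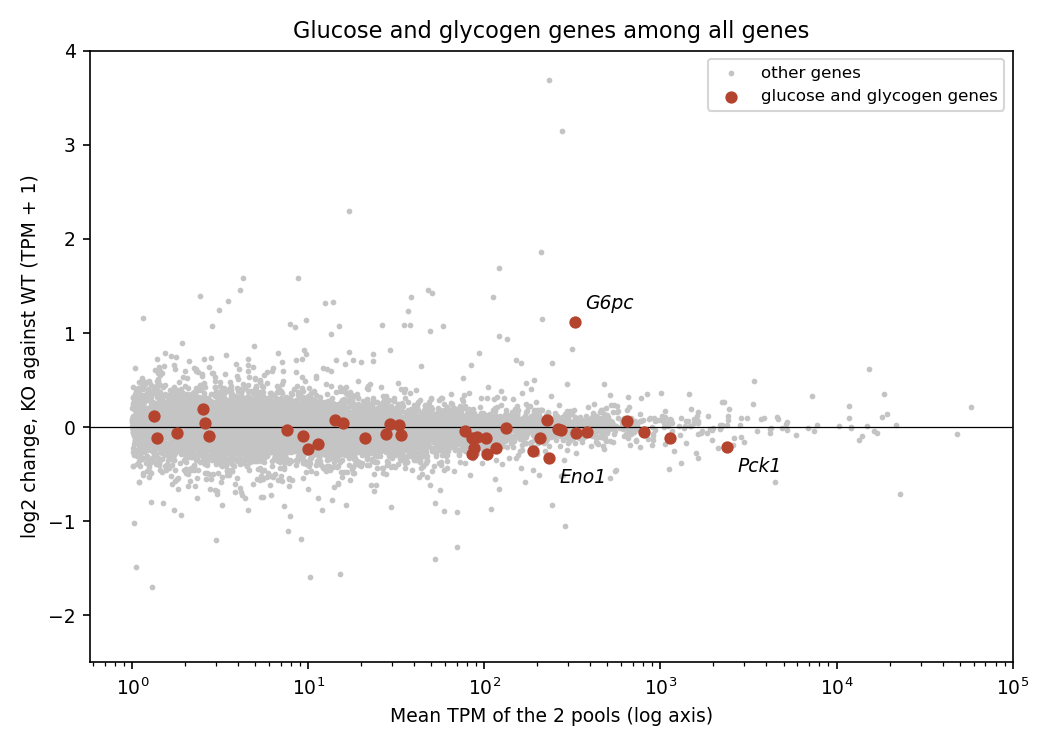
Log2 difference between the pools against the mean level in TPM (log axis) for genes averaging at least 1 TPM, with 39 genes of the set in red. Each point is 1 gene, and 16 genes lie outside the vertical range drawn. G6pc stands above the cloud at 1.12, while the other members sit near 0, the lowest being Eno1 at -0.33.

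The rest of the glucose-6-phosphatase system did not follow G6pc. Slc37a4, the transporter that brings glucose 6-phosphate to the catalytic subunit in the endoplasmic reticulum, was at 106.76 TPM in KO against 124.74 in WT (log2 -0.22, interval -0.28 to -0.14). The ratio of G6pc to Slc37a4 was 4.17 in KO and 1.64 in WT. G6pc3, the widely expressed paralog of the catalytic subunit, was low in both pools, at 2.63 TPM in KO against 2.52 in WT (0.04, interval -0.49 to 0.63). G6pc made up 99.4% of the transcripts of both paralogs in KO and 98.8% in WT.

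The enzymes upstream in gluconeogenesis differed little, and in both directions. Pck1, the cytosolic phosphoenolpyruvate carboxykinase, was at 2203.87 TPM in KO against 2550.60 in WT (-0.21, interval -0.21 to -0.18). Pck2, its mitochondrial counterpart, was at 1.43 and 1.23 TPM (0.12, interval -0.28 to 0.73), so Pck1 supplied at least 99.9% of both in each pool. Pcx, the pyruvate carboxylase that feeds the pathway with oxaloacetate, was at 231.81 TPM in KO against 218.88 in WT (0.08, interval 0.06 to 0.13). Fbp1, the fructose-1,6-bisphosphatase that opposes phosphofructokinase, was at 795.52 and 823.81 TPM (-0.05). The branch thus had 4 members above 0 and 3 below, with a median of 0.04. Without G6pc the median of the branch was 0, with 3 above and 3 below. G6pc and Pck1, often paired as gluconeogenic marker genes, differed in opposite directions, and their ratio was 0.202 in KO and 0.0803 in WT.

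Opposing enzymes were then compared at steps where the set holds both directions. At the fructose 6-phosphate cycle the ratio of Fbp1 to Pfkl was 49.6 in KO and 52.9 in WT, a log2 difference of -0.09. At the pyruvate cycle the ratio of Pck1 to Pklr was 23.7 in KO and 22.5 in WT, a log2 difference of 0.07, since both transcripts were lower in KO. The ratio of G6pc to Slc37a4 differed more, but these are not opposing enzymes and G6pc had the largest difference of the set.

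Glucose entry and hexose phosphorylation in the set itself differed little. Slc2a2, the main glucose transporter of hepatocytes, was at 199.36 TPM in KO against 215.35 in WT (-0.11, interval -0.14 to -0.05). Slc2a1, a transporter of many other cells, was at 7.44 and 7.64 TPM (-0.03). Khk, which phosphorylates fructose, was at 325.97 TPM in KO against 338.98 in WT (-0.06, interval -0.09 to 0.02). The low-Km hexokinases were all under 3 TPM. Hk1 was at 1.73 and 1.85 TPM (-0.06), and Hk3, a hexokinase of leukocytes, was at 2.76 and 2.29 TPM (0.19, interval -0.09 to 0.67). Beside Hk3, 9 of 10 Kupffer cell markers were higher in KO, with a median of 0.16 and a summed level of 376 TPM in KO against 334 in WT, and their part in the value of Hk3 was not tested.

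In upper glycolysis the phosphofructokinase transcripts were close in the pools, and the Pfkfb transcripts that averaged at least 1 TPM leaned lower. Gpi1, the glucose 6-phosphate isomerase, was at 76.55 TPM in KO against 78.91 in WT (-0.04). The liver isoform Pfkl was at 16.04 and 15.57 TPM (0.04, interval -0.08 to 0.19), the muscle isoform Pfkm at 8.96 and 9.63 TPM (-0.09) and the platelet isoform Pfkp at 1.29 and 1.48 TPM (-0.11). Pfkl made up 61.0% of the isoforms in KO and 58.4% in WT. Skeletal muscle markers were all under 1 TPM in both pools, beside Pfkm and the muscle enolase Eno3. The Pfkfb enzymes make and degrade fructose 2,6-bisphosphate, the activator of phosphofructokinase, and the 3 that averaged at least 1 TPM were lower in KO, with a median of -0.12. Pfkfb3 was at 9.11 TPM in KO against 10.82 in WT (-0.23, interval -0.39 to -0.10). Pfkfb2 was at 19.97 and 21.77 TPM (-0.12), and the liver form Pfkfb1 at 32.47 and 34.36 TPM (-0.08, interval -0.21 to 0.07).

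The triose steps leaned lower, with 7 of 8 members below 0 and a median of -0.06. Gapdh, the glyceraldehyde 3-phosphate dehydrogenase widely used as a reference transcript, was at 1080.61 TPM in KO against 1174.02 in WT (-0.12, interval -0.14 to -0.08). Aldoa, the aldolase of muscle and many other tissues, was at 80.71 and 94.03 TPM (-0.22, interval -0.30 to -0.11), and Aldoc, the brain form, at 14.59 and 13.80 TPM (0.08). Tpi1, Pgk1 and Pgam1, which encode triose-phosphate isomerase, phosphoglycerate kinase and phosphoglycerate mutase, were between -0.03 and -0.01. Pgam1 was the nearest to 0, at 131.78 TPM in KO against 132.88 in WT. Pgk1 and Pgam1 had the largest shares in the set of 100-base windows that also occur in other genes, 51.7% and 33.9%. None of those other genes was found by symbol among the genes measured, and the effect on read placement was not tested. Eno3 was at 2.60 and 2.84 TPM (-0.09, interval -0.72 to 0.41).

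Eno1, the enolase of liver, had the lowest value of the set and has a copy that shares part of its sequence. Eno1 was at 206.72 TPM in KO against 260.16 in WT (-0.33, interval -0.36 to -0.26). Of its 100-base windows, 20.3% also occur in Eno1b, and Eno1b was at 119.97 TPM in KO against 89.00 in WT (0.43). The sum of both was 326.69 TPM in KO against 349.16 in WT, a log2 difference of -0.10, near that of Gapdh. The division of reads between the copies by the authors' counting was not tested, and the counting interval does not cover it. Gapdh shared 20.9% of its windows with other genes, most of which were not found among the genes measured and could not be summed. Its listed copy Gm12070 was at 6.75 TPM in KO against 7.29 in WT. That is too low beside Gapdh to move the sum, which was at -0.12 like Gapdh alone.

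**Figure D4:**
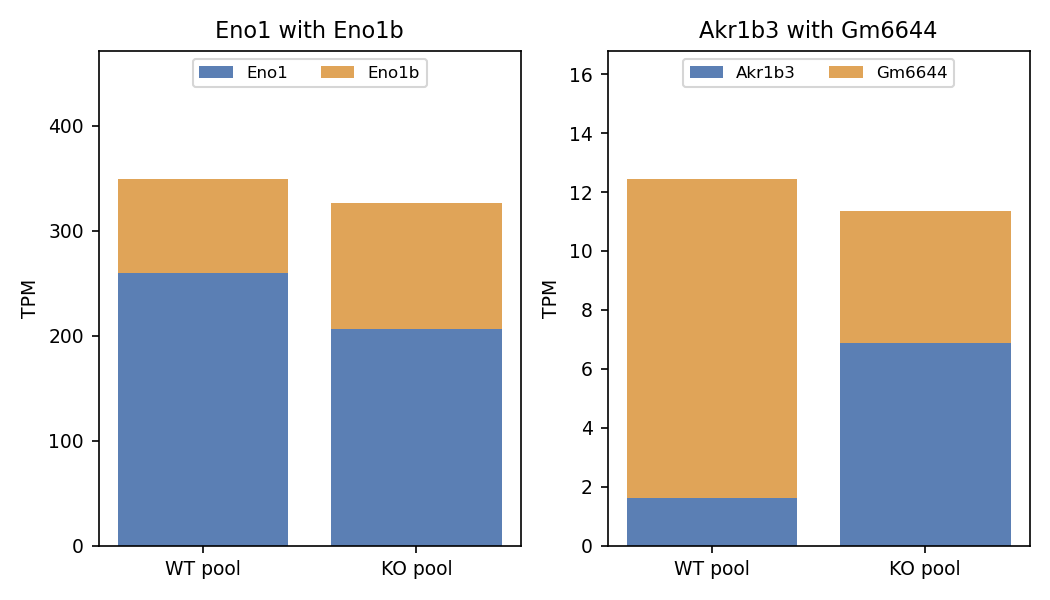
Levels in TPM of Eno1 stacked with its copy Eno1b, and of the aldose reductase gene Akr1b3 stacked with its copy Gm6644, in the WT and KO pools. Each bar starts at 0 and is 1 pooled library, with no error bars. The division within a bar differs between the pools more than its full height does, which is 326.69 TPM in KO against 349.16 in WT for the enolases.

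At the end of glycolysis the pyruvate kinases were lower and lactate dehydrogenase was not. Pklr, the liver pyruvate kinase, was at 92.88 TPM in KO against 113.21 in WT (-0.28, interval -0.34 to -0.21). Of the 11623 genes, 534 had a lower value than Pklr, as did 30 of the 1013 most abundant ones. Pkm, the pyruvate kinase of most other tissues, was at 10.60 and 12.17 TPM (-0.18, interval -0.39 to 0.01), and Pklr made up 89.8% of both in KO and 90.3% in WT. Ldha, which interconverts pyruvate and lactate, was at 663.01 TPM in KO against 630.75 in WT (0.07, interval 0.06 to 0.12).

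Entry of pyruvate into mitochondrial oxidation showed small differences between subunits and kinases. The subunits of pyruvate dehydrogenase were slightly lower, with Pdha1 at 81.46 TPM in KO against 88.68 in WT (-0.12, interval -0.18 to -0.04) and Pdhb at 97.90 and 106.25 TPM (-0.12, interval -0.19 to -0.01). Dlat, the acetyltransferase of the same complex, was at 27.00 and 28.35 TPM (-0.07, interval -0.16 to 0.04). The kinases that inhibit the complex, Pdk1 at 29.49 and 28.95 TPM (0.03) and Pdk2 at 32.84 and 32.36 TPM (0.02), were nearly equal in the pools. The ratio of Pcx to Pdha1, the entry points of pyruvate to glucose synthesis and to oxidation, was 2.85 in KO and 2.47 in WT, a log2 difference of 0.21.

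All 4 glycogen members were lower in KO, with a median of -0.18. Ugp2 makes the UDP-glucose from which glycogen is built and was at 171.42 TPM in KO against 204.03 in WT (-0.25, interval -0.29 to -0.20). Gbe1, the branching enzyme, was at 76.41 and 93.25 TPM (-0.28, interval -0.34 to -0.21). Gys2, the liver glycogen synthase, was at 88.05 and 94.55 TPM (-0.10, interval -0.16 to -0.02). Pygl, the liver glycogen phosphorylase that degrades the polymer, was at 376.64 TPM in KO against 388.75 in WT (-0.05). The larger differences thus belonged to the enzymes of precursor supply and branching, and the ratio of Gys2 to Pygl was 0.234 in KO and 0.243 in WT.

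The other genes of the pathway were read from 3 lists of enzymes, glycogen genes and regulators. Of 43 other enzymes and transporters, 30 averaged at least 1 TPM, with a median of -0.04, and 2 were higher by at least 1.4-fold (Akr1b3 and Pdk4). Pdk4, a kinase of pyruvate dehydrogenase that rises in fasting, was at 6.43 TPM in KO against 4.26 in WT (0.50, interval 0.36 to 0.85). Ldhb, the heart form of lactate dehydrogenase, was among the lowest, at 1.52 and 2.52 TPM (-0.48, on 23 and 52 reads). Akr1b3, the aldose reductase of the polyol pathway, was at 6.87 TPM in KO against 1.62 in WT (1.59), but its sum with the near-identical copy Gm6644 was 11.36 and 12.44 TPM (-0.12).

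Of 23 other glycogen genes, 19 averaged at least 1 TPM, and their median was 0.01, with 12 above 0 and 7 below. The extremes were targeting subunits of protein phosphatase 1, which bring the phosphatase to glycogen. Ppp1r3g was the highest, at 8.96 TPM in KO against 5.18 in WT (0.69, interval 0.54 to 1.07), and passed the 1.4-fold rule. Ppp1r3c was the lowest, at 42.05 and 58.45 TPM (-0.47, interval -0.55 to -0.37), followed by Ppp1r3b at 149.47 and 176.89 TPM (-0.24). Gyg, the glycogenin that primes the polymer, was second highest at 5.35 and 4.18 TPM (0.29, interval -0.01 to 0.75).

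Of 28 regulators, all averaging at least 1 TPM, 15 were above 0 and 13 below, with a median of 0.05. Irs2, an adaptor of the insulin receptor, was at 18.15 TPM in KO against 6.69 in WT (1.32, interval 1.29 to 1.61). Sik1, a kinase that restrains CREB coactivators, was at 13.67 and 5.66 TPM (1.14, interval 1.12 to 1.45). Both passed the 1.4-fold rule. Ppargc1a, a coactivator of gluconeogenic genes, was among the lowest at 4.96 TPM in KO against 6.36 in WT (-0.30, interval -0.52 to -0.18). Foxa2, a forkhead factor of hepatocytes, was the lowest at 14.70 and 20.96 TPM (-0.48, interval -0.67 to -0.31). Foxo1, a forkhead factor restrained by insulin, was at 15.19 and 15.40 TPM (-0.02, interval -0.12 to 0.10).

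**Figure D5:**
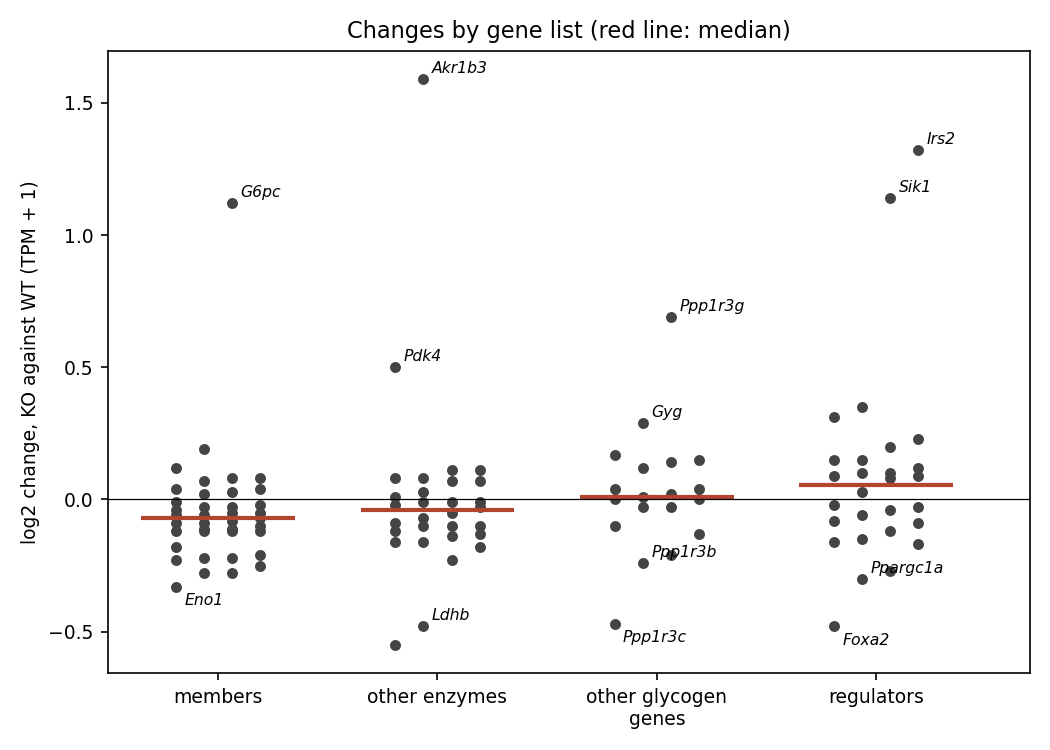
Log2 difference between the pools for each gene averaging at least 1 TPM in the 41-gene set and in the lists of other enzymes, other glycogen genes and regulators. Each point is 1 gene and the red lines mark the medians, which are -0.07, -0.04, 0.01 and 0.05.

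Hepatocyte zone and time of day are known to shape the levels of these genes, and markers of both differed between the pools. Pericentral hepatocyte markers were higher in KO for 8 of 8 (median 0.11, summed level 7492 TPM in KO against 6886 in WT). Periportal markers, from the zone where gluconeogenesis is the more active, were lower for 6 of 8 (median -0.16, summed level 2394 and 2800 TPM). Of the clock genes, 5 of 5 with a dawn peak were higher (median 0.22, summed level 77.8 and 65.1 TPM), and 9 of 9 with a dusk peak and an average of at least 1 TPM were lower (median -0.35, summed level of the list 140 and 180 TPM). Beside these counts, 53.8% of the 11623 genes averaging at least 1 TPM were below 0. The part of zone and of time of day in the values of G6pc, Pck1 and the other members was not tested.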

How the data were processed

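Paired reads of 100 bases from 1 stranded total RNA library per genotype, each a pool of 5 livers with equal masses of RNA, were processed by the authors with CASAVA 1.8.2, RSEM 1.2.09, Bowtie and mm10, as named in the submitters' processing notes. The authors deposited posterior mean TPM for 24054 genes (sums 1005325 in KO and 994702 in WT). A second deposited table of 16318 genes holds the mean signal of each library, which is the authors' estimated reads divided by a size factor. It also holds the authors' own comparison, as deposited fold ratios and posterior probabilities (a fraction from 0 to 1), which were not used. Libraries were assigned to genotypes from the labels.

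The value of 1 read was taken as the most frequent low value of the authors' means, 1.16 in KO and 0.860 in WT. Within a tolerance of 0.02, 79.4% and 75.8% of values were whole reads, so whole reads were not recovered and no count test was run. Log2 differences were computed with a pseudocount of 1 TPM and summarised over genes averaging at least 1 TPM. The rule for a higher level was a fold of at least 1.4, and for a lower level at most 0.6, with a TPM above 0 in both libraries. The 1.2-fold rule and the mirror of 1.4-fold were alternatives.

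All members were named, and for the other lists the 2 highest and 2 lowest. Foxo1, Sord and the fructose and galactose genes, as well as the Pck1 window, were chosen after their values were seen. Some genes of the lists are not reported here. The members and lists were chosen with earlier results of these data known. Gene positions and upstream windows are from RefSeq on GRCm38, and shared windows were counted in annotated transcripts of the same assembly. Alternatives were a pseudocount of 0.1 TPM, other minimums and folds, the authors' means, centring, rescaling without the 50 most abundant genes and sums with near-identical copies. The work was done in Python 3.11.15, with pandas 2.3.3, numpy 2.4.6 and scipy 1.17.1, and drawn in matplotlib 3.10.9.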

Additional observations from a re-analysis of the deposited data

How the results depend on the processing

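No paired analysis was possible because the mice of a genotype share 1 library, and leaving a library out would leave no comparison. With a fold of 1.2 and its mirror, 3 members were lower in place of 0. The log2 difference of Pgrmc1, -9.14 as given, was -10.25 with a pseudocount of 0.1 TPM and -10.44 on the authors' means, since 1 TPM is large beside the KO level. Akr1b3, at 1.59 alone, was at -0.12 when summed with its copy Gm6644, and Eno1, at -0.33 alone, was at -0.10 when summed with Eno1b. Of 158 values over 39 members, 155 differed from the values given by less than their counting error and 3 did not, for Eno1 (the sum above) and for Pck1 (-0.20 on the authors' means and after centring). The number of members below 0 was 28 or 29 of 39. It was 28 on the authors' means and after centring, where 50.914% and 49.9957% of all genes were below 0. It was 29 as given, with a pseudocount of 0.1 TPM and after rescaling, beside 53.8% of all genes in each. Without G6pc the median of gluconeogenesis was 0. For members of few reads such as Hk3, Pck2, G6pc3 and Eno3, a difference between the pools cannot be resolved from counting error. Differences between mice were not measured.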

Other observations

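Several genes of fructose, galactose and polyol metabolism were close in the pools. Tkfc, the triokinase of the fructose route, was at 94.73 TPM in KO against 100.64 in WT (-0.09). Slc2a5, a fructose transporter, was at 1.24 and 1.5 TPM (-0.16, interval -0.82 to 0.24). Of the galactose enzymes, Galk1 (40.96 and 41.62 TPM) and Galt (31.03 and 32.07 TPM) were at -0.02 and -0.05. Sord, the sorbitol dehydrogenase of the polyol pathway, was at 807.97 and 816.14 TPM (-0.01, interval -0.02 to 0.02).

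Akr1b3, the aldose reductase that makes sorbitol, rested on 98 reads in KO and 24 in WT. Its copy Gm6644, which holds 6.30% of its 100-base windows, was at 4.49 TPM in KO against 10.82 in WT (-1.11). The division of reads between them was not tested.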
